A study of Rattus norvegicus with 192 samples.

Results

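The kidney mRNA of lean rats was compared between a whole egg and a casein diet, using 12 of the 192 libraries of the series and all 7607 genes of the lean kidney count table. The libraries were chosen by the diet and genotype in the column names of that table, which gives 6 whole egg rats (rats 2, 6, 10, 13, 17 and 21) and 6 casein rats (rats 4, 8, 12, 15, 19 and 23). The study sequenced mRNA and microRNA of 4 tissues from Zucker diabetic fatty (ZDF) rats, which are fa/fa, and from their lean controls, which are fa/+ and carry 1 intact copy of the leptin receptor gene. All rats were males, obtained at 6 wk of age and fed for 8 wk, and both diets supplied 20% protein, from dried whole egg or from casein, with corn oil added to the casein diet to match its lipid. They were housed in pairs, and which rats shared a cage is not given in the sources used here. The comparison asks whether the egg diet altered kidney transcripts in rats without the diabetic genotype.

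The sample labels and the column names did not give the same genotype for every rat. Rats 2, 6 and 10 of the whole egg group and rats 4, 8 and 12 of the casein group carry the strain label ZDF, although their columns are named lean, while the diets were the same in both sources. Each diet group thus holds 3 rats labelled Lean and 3 labelled ZDF. Values are therefore also given by label below, and "lean kidney" refers to the table.

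The kidney filters blood and recovers water, salts, glucose and amino acids along its tubules, and it is also a site of detoxification. Glutathione transferases join glutathione, a small sulfur-containing peptide, to reactive compounds, and UDP-glucuronosyltransferases join glucuronic acid to them, so that the products can be excreted. The kidney activates vitamin D and also degrades it, and it takes part in the metabolism of arginine.

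The tissue label was checked against marker genes. Cyp2c23, a cytochrome P450 that is abundant in the rat proximal tubule, was at 366 to 1502 CPM (counts per 1000000 counts of a library, scaled by the trimmed mean of M values, TMM) in the 12 kidneys. Its median was 765 CPM there, against 7.36 CPM in the prefrontal cortex and 19.8 CPM in the adipose tissue of lean rats, tables that were each scaled separately. Slc12a3, the thiazide-sensitive salt transporter of the distal tubule, had a median of 183 CPM in the kidney and stands in neither of the other tables. Adipoq, an adipocyte hormone, had a median of 20.5 CPM in the kidney and of 4449 CPM in adipose tissue. Of the markers listed for the loop of Henle, endothelium, adrenal cortex and blood, none could be matched to a row of the table by symbol.

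Total counts per library were 418760 to 1448542 in whole egg rats (median 1188125) and 665699 to 5356262 in casein rats (median 1409372). The identifier with the most counts over all 12 libraries together took 17.5 to 47.0% of the counts in whole egg rats. In casein rats it took 2.91 to 50.9%, where the lowest share belonged to rat 23, which was also the deepest library. Genes at a count of 0 numbered 891 in whole egg rat 10, 165 in whole egg rat 2 and 426 in casein rat 12, against 3 to 83 in the other 9 libraries. These 3 libraries, all labelled ZDF, also lay far from the rest on the 3 leading principal components (log2 CPM), which held 27.2, 18.8 and 12.0% of the variance. Whole egg rat 10 stood apart on component 1, casein rat 12 on component 2 and whole egg rat 2 on component 3. Where the log2 fold change of a named gene moved by over 1.5 times without these libraries, or without 1 rat, such a value is given here or with the dependence on processing, a choice made after seeing the data. The difference in mean score between whole egg and casein rats was not past the threshold on component 1 (exact permutation p = 0.5, two-sided), on component 2 (exact p = 0.704) or on component 3 (exact p = 0.714). The adjusted p was 0.714 for each, and 0.00216 is the smallest p that 6 against 6 rats allow.

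**Figure D1:**
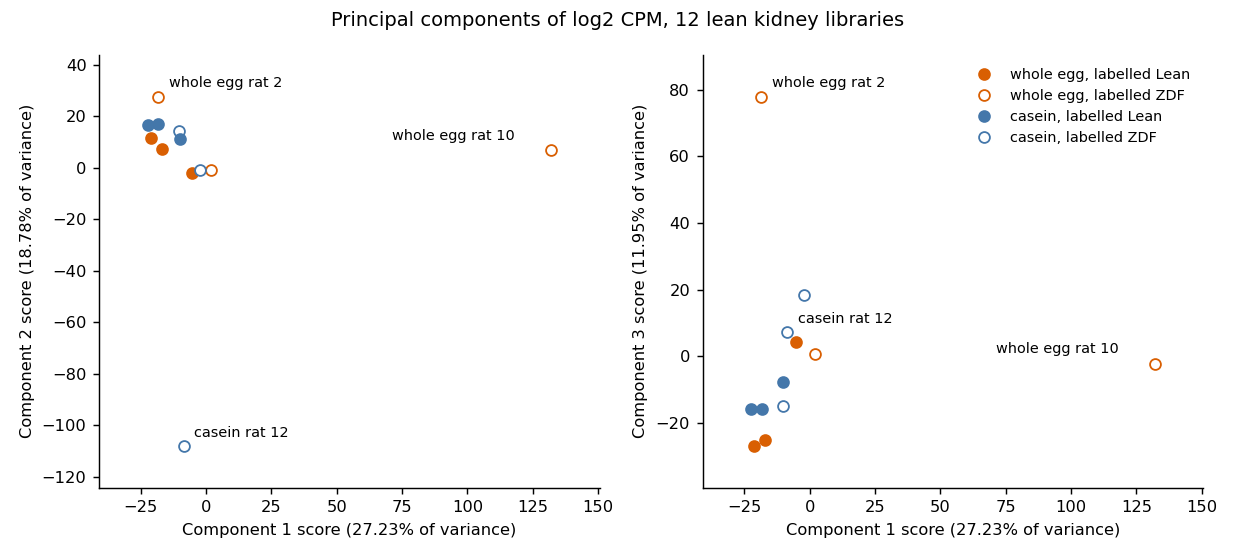
Scores of the 12 lean kidney libraries on principal components 1 and 2 (left) and 1 and 3 (right) of log2 CPM, with whole egg rats in orange and casein rats in blue, filled for rats labelled Lean and open for rats labelled ZDF. Whole egg rat 10 scores 132 on component 1, casein rat 12 scores -108.1 on component 2 and whole egg rat 2 scores 77.9 on component 3, while the other rats of both diets intermix.

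In the lean kidney no gene passed an FDR of 5% between the diets in edgeR's quasi-likelihood test (0 of 7607 genes, 0%). The genes nearest to the threshold were Phlda1, Cyp24a1, Cdh1 and Tgm2 among those lower on whole egg and Gstm1, Anapc16 and Arg2 among those higher. At an unadjusted p under 0.05 there were 131 genes higher on whole egg (1.72%) and 108 lower (1.42%), 239 in all (3.14%). DESeq2 called Phlda1 alone (0.0131% of the genes), with its own size factors or with TMM factors. limma-voom with sample quality weights called 4 genes (0.0526%), namely Gstp1, Phlda1, Ugt1a6 and Gstm1. The 6 whole egg values lay all above the 6 casein values for 10 genes (0.131%) and all below them for 6 genes (0.0789%). The symbols known among these are Anapc16, Arg2 and Gstm7 above and Phlda1 below. The p-values measure the spread between these rats, whose common biological coefficient of variation was 0.526.

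Phlda1, a pleckstrin homology-like protein known as a target of growth factor signaling, had the smallest p of all genes. It was at 3.18, 6.06 and 10.1 CPM (lowest, median and highest) in whole egg kidneys and at 21.9, 30.7 and 39.1 CPM in casein kidneys. Every whole egg rat was below every casein rat. The log2 fold change was -2.30 (SE 0.46, unadjusted p = 3.31e-05, edgeR adjusted p = 0.252). With DESeq2 the adjusted p was 0.000376, with limma-voom it was 0.0263, and over all alternatives it ran from 0.000349 to 0.999. The value rests on few reads, since the whole egg libraries held 1 to 15 counts of Phlda1 and the casein libraries 9 to 200. In whole kidneys, fewer cells of a type and less RNA per cell cannot be told apart, for this gene or for those that follow.

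Cyp24a1, the hydroxylase that degrades active vitamin D, was at 35.0, 44.7 and 87.5 CPM in whole egg kidneys and at 77.5, 130 and 180 CPM in casein kidneys. The overlap came from 1 rat on each side, whole egg rat 17 and casein rat 19. Its log2 fold change was -1.29 (SE 0.31, edgeR adjusted p = 0.979). Cdh1, the E-cadherin of epithelial cell junctions, was at 41.3, 55.5 and 72.4 CPM in whole egg kidneys and at 71.3, 124 and 178 CPM in casein kidneys, with only whole egg rat 13 and casein rat 4 overlapping. Cdh1 had a log2 fold change of -1.09 (SE 0.28, edgeR adjusted p = 0.998). Tgm2, a transglutaminase that crosslinks extracellular proteins, was at 14.9, 36.9 and 54.1 CPM in whole egg kidneys and at 41.9, 89.8 and 116 CPM in casein kidneys. Casein rat 4 alone reached into the whole egg range, and the log2 fold change was -1.31 (SE 0.34, edgeR adjusted p = 0.998).

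Arg2, the mitochondrial arginase that splits arginine into ornithine and urea, was at 26.3, 37.4 and 50.03 CPM in whole egg kidneys and at 2.44, 12.0 and 17.1 CPM in casein kidneys. All 6 whole egg rats were above all 6 casein rats, with a log2 fold change of 1.55 (SE 0.42, edgeR adjusted p = 0.998). Anapc16, a subunit of the anaphase-promoting complex, was at 14.2, 22.6 and 41.3 CPM in whole egg kidneys. In casein kidneys it was at 0, 4.21 and 10.2 CPM, and the 0 counts of casein rat 4 allow up to 4.19 CPM at its depth. These groups did not overlap either, and the log2 fold change was 2.14 (SE 0.58, edgeR adjusted p = 0.998). Gstm1, a mu class glutathione transferase, was at 43.6, 74.4 and 98.6 CPM in whole egg kidneys and at 16.3, 24.6 and 58.5 CPM in casein kidneys. Only casein rat 12, 1 of the 3 libraries that stand apart, was within the whole egg range, the other casein rats reaching 28.4 CPM at most. The log2 fold change of Gstm1 was 1.39 (SE 0.35, edgeR adjusted p = 0.998) with all rats and 1.63 without the 3 libraries (adjusted p = 0.0744).

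These 7 genes are the ones the study lists for this tissue, selected on the same libraries, so their separation is a description and not independent evidence. The study lists all 7 as changed in DESeq2, where only Phlda1 was called here. For Cyp24a1, Gstm1, Arg2 and Anapc16 the DESeq2 adjusted p was 0.0936 with its own size factors and 0.084 with TMM factors. In the same order it was 0.109 and 0.125 for Cdh1, and 0.159 and 0.175 for Tgm2. Each of the 7 genes kept the sign of its log2 fold change in all 24 alternatives in which fold changes were recomputed. The range over these was -2.70 to -2.03 for Phlda1, -1.64 to -0.96 for Cyp24a1 and -2.04 to -0.71 for Tgm2, and 1.26 to 1.66 for Gstm1 and 1.39 to 1.74 for Arg2.

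**Figure D2:**
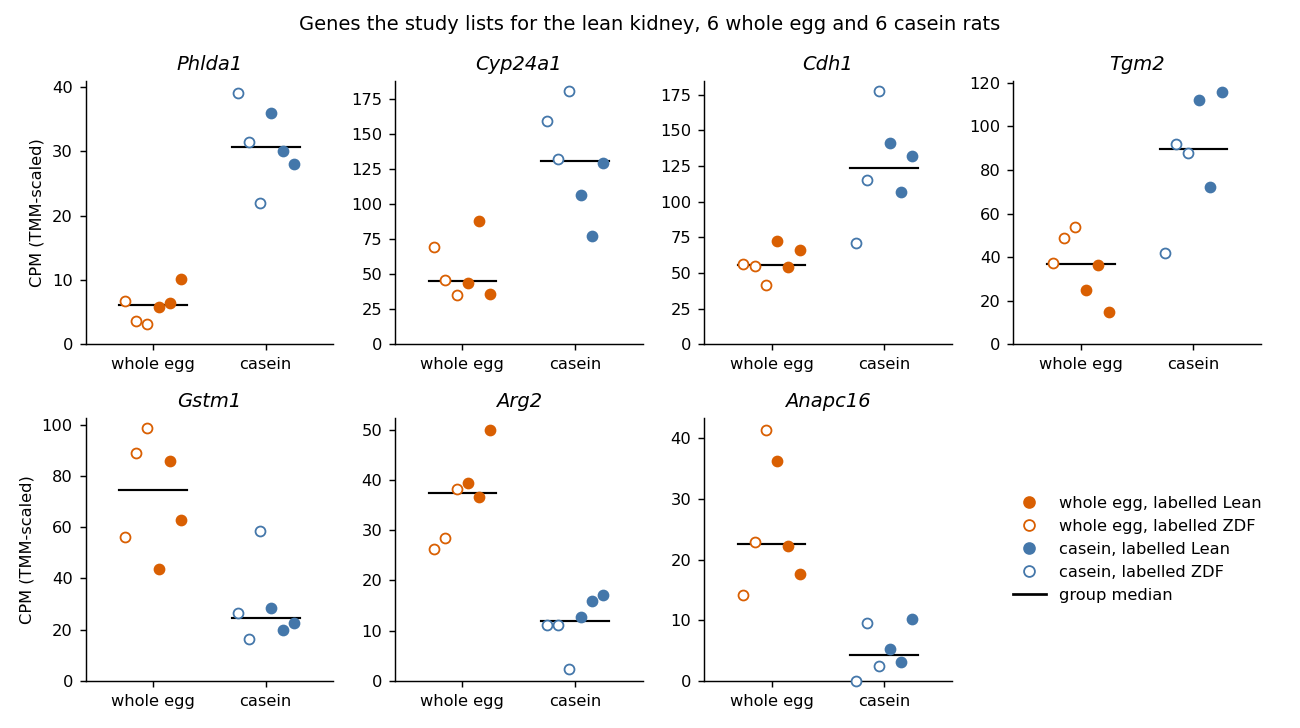
CPM (TMM-scaled) of the 7 genes listed by the study for the lean kidney, in each of 6 whole egg rats (orange) and 6 casein rats (blue), filled for rats labelled Lean and open for rats labelled ZDF, with a line at each group median. The groups do not overlap for Phlda1, Arg2 and Anapc16, and casein rat 12 is the single high casein value of Gstm1, at 58.5 CPM.

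Among the glutathione transferases 12 of 22 listed were measured, that is, matched to a row of the table by symbol, and 10 of the 12 (11 with upper quartile factors) had a positive log2 fold change (median 0.35). Over all 7607 genes 50.2% were positive and the median was 0.0025. Symbols were known only for genes that the study lists as changed by whole egg in some tissue and genotype. All 12 transferases stand in that list as higher on whole egg, Gstm1 from these same libraries, so they are a selected set. Of the 421 genes with a symbol, 210 were positive, with a median of -0.0014. None of the 12 passed in edgeR, while 3 transferases (Gstm1, Gstp1 and Gstm7) were higher on whole egg at an unadjusted p under 0.05. The summed level of the 12 was 2327 to 3503 CPM in whole egg kidneys (median 3040) and 1569 to 3125 CPM in casein kidneys (median 1839), so the groups overlapped. The median log2 fold change of the list was 0.70 in the rats labelled Lean (11 of 12 positive) and 0.09 in those labelled ZDF (7 of 12 positive), and without the 3 libraries that stand apart it was 0.53 with all 12 positive.

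Gstp1, the pi class transferase, was at 137, 315 and 628 CPM in whole egg kidneys and at 46.1, 93.6 and 397 CPM in casein kidneys. Casein rat 12 held the 397 CPM and the next casein rat 106 CPM, below the lowest whole egg value. The log2 fold change was 1.35 (SE 0.42, edgeR adjusted p = 0.998) with all rats and 2.33 without the 3 libraries, where Gstp1 was the single gene called (0.0131% of the genes, adjusted p = 0.00173). limma-voom with quality weights gave an adjusted p of 0.00695, and over all alternatives it ran from 0.00173 to 1. Without casein rat 12 alone, the log2 fold change was 2.00 and no gene passed.

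Gstm7, another mu class enzyme, was at 33.8, 43.3 and 54.1 CPM in whole egg kidneys and at 17.1, 20.9 and 28.6 CPM in casein kidneys, without overlap. Its log2 fold change was 0.96 (SE 0.35, edgeR adjusted p = 0.998). Gstt3, of the theta class, was at 0.44 on the log2 scale (SE 0.26, edgeR adjusted p = 0.998). Reads of near-identical mu class genes may be divided among copies by the counting, so the values of Gstm1 and Gstm7 are uncertain to that extent. Ugt1a6, a glucuronosyltransferase of phenols, was at 324, 377 and 525 CPM in whole egg kidneys and at 145, 202 and 382 CPM in casein kidneys. Again casein rat 12 held the highest casein value and the next was 212 CPM. Its log2 fold change was 0.89 (SE 0.27, edgeR adjusted p = 0.998), and its adjusted p was 0.0263 with limma-voom and 0.0744 without the 3 libraries, in a range of 0.0263 to 1 over all alternatives.

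**Figure D3:**
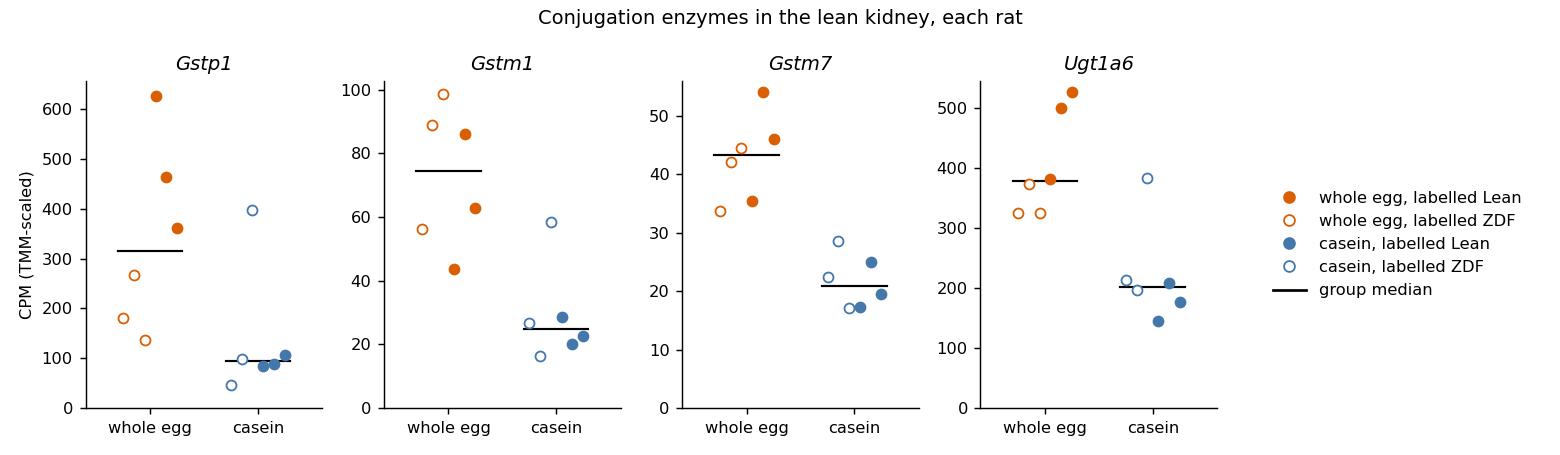
CPM (TMM-scaled) of Gstp1, Gstm1, Gstm7 and Ugt1a6 in each of 6 whole egg rats (orange) and 6 casein rats (blue), filled for rats labelled Lean and open for rats labelled ZDF, with a line at each group median. For Gstp1, Gstm1 and Ugt1a6 the single casein value inside the whole egg range is rat 12 (397, 58.5 and 382 CPM), and for Gstm7 the groups do not overlap.

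The promoters of the 3 transferases with the smallest p are shown because transferase genes are a textbook group of targets of the antioxidant response element. Its core, TGACNNNGC, was searched on both strands from 250 bases before to 50 bases after the transcription start (RefSeq, build GRCr8), and a match is in capitals. Gstp1 lies at chr1:210769656-210769955 and holds TGACTCAGC beginning 61 bases before the start, Gstm7 lies at chr2:198260270-198260569 and holds TGACACAGC beginning 14 bases before it, and Gstm1 lies at chr2:198343334-198343633 with no match in this window. All 3 are on the minus strand and are written 5′ to 3′ along the gene.
Gstp1: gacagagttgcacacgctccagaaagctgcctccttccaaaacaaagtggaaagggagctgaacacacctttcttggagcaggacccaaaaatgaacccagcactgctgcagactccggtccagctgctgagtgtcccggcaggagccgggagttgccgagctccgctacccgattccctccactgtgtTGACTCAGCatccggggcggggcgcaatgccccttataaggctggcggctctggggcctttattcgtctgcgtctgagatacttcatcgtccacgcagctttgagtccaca
Gstm7: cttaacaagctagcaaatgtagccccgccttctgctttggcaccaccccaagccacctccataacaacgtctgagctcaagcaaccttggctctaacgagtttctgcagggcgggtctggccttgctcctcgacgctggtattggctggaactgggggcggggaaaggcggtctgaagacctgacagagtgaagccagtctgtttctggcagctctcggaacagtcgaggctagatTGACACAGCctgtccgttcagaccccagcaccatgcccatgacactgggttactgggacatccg
Gstm1: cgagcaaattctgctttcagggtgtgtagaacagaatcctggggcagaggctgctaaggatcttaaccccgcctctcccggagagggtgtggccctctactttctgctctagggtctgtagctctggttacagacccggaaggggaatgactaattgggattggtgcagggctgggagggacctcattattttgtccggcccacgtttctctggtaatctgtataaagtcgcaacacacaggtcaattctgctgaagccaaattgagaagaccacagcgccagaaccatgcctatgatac
Of the 12 measured transferases 11 had a promoter in the table, Gsta3 a pair of them, and 5 of these 12 promoters held the core, while 4038 of all 33469 promoters (12.1%) did. A match describes the letters of this window only.

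Genes that supply or use glutathione and other antioxidant genes were centered near 0. Of 5 measured genes of glutathione supply and use, 3 were positive with a median log2 fold change of 0.06, which was -0.24 in the rats labelled Lean, 0.37 in those labelled ZDF and -0.093 without the 3 libraries that stand apart. Slc25a39, the mitochondrial glutathione carrier, had a log2 fold change of 0.57 (SE 0.28, edgeR adjusted p = 0.998), and 4 of its whole egg values, which ran from 154 to 253 CPM, lay above all casein values of 57.3 to 170 CPM. Gclm, the modifier subunit of the enzyme that starts glutathione synthesis, was at 0.34 (SE 0.33) on the log2 scale with all rats, 0.14 without whole egg rat 21 and 0.78 without the 3 libraries. Of 7 other antioxidant enzymes 2 were positive (1 to 3 under other scalings), with a median of -0.07 (-0.22 to 0.10 over the alternatives), and the widest was Nqo1, a quinone reductase, at 0.79 (SE 0.69) with all rats and 0.28 without whole egg rat 10.

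Lipid genes were mixed. For cholesterol synthesis and uptake 10 genes were measured, of which 6 were positive, and the median log2 fold change was 0.23. Without the 3 libraries that stand apart 4 were positive with a median of -0.067, and the median was -0.0082 in the rats labelled Lean and -0.13 in those labelled ZDF. Fdps, which makes farnesyl diphosphate on the path to cholesterol, went the other way, at 3.18, 4.76 and 10.1 CPM in whole egg kidneys and at 7.48, 16.7 and 29.4 CPM in casein kidneys. Its groups overlapped through casein rat 15, and its log2 fold change was -1.44 (SE 0.55, edgeR adjusted p = 0.998). Tm7sf2, a sterol reductase, was at 0.72 (SE 0.46). Of 7 lipid genes that respond to the nuclear receptors PPAR, 5 were positive with a median of 0.29, and without the 3 libraries 3 were, with a median of -0.12. Lpl, the lipase of circulating triglycerides, was at 0.70 (SE 0.40) with all rats, 0.45 without whole egg rat 6 and 1.08 without casein rat 4. Plin2, a lipid droplet coat protein, was at 0.93 (SE 0.70) with all rats, 0.093 without whole egg rat 10 and 0.35 without the 3 libraries. Of 9 genes of fatty acid synthesis and desaturation, 6 were positive with a median of 0.12 (-0.035 to 0.32 over the alternatives), and Fads1, a desaturase of polyunsaturated fatty acids, was at -0.73 (SE 0.51).

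In amino acid breakdown, 12 of 18 measured genes were positive, with a median log2 fold change of 0.14. In the rats labelled Lean 7 were positive with a median of -0.14, in those labelled ZDF 11 with a median of 0.30, and without the 3 libraries that stand apart the median was 0.029. Ivd, which oxidizes the leucine product isovaleryl-CoA, was at 216, 283 and 366 CPM in whole egg kidneys and at 117, 154 and 312 CPM in casein kidneys. Casein rat 12 was once more the single casein rat inside the whole egg range, the next being at 161 CPM. Ivd had a log2 fold change of 0.69 (SE 0.27, edgeR adjusted p = 0.998). Cdo1, which oxidizes cysteine, was at 0.71 (SE 0.34) with all rats and 1.16 without the 3 libraries, and Sardh, which breaks down sarcosine, at 0.84 (SE 0.44). Ddc, the decarboxylase that makes dopamine, was at -0.89 (SE 0.48) with all rats, -1.62 without whole egg rat 2 and -1.87 without the 3 libraries.

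Of 6 genes of arginine, urea and polyamine metabolism, 3 were positive, with a median log2 fold change of 0.04 (-0.23 to 0.42 over the alternatives). Beside Arg2, Oat, which converts ornithine, was at 0.61 (SE 0.36) with all rats and 0.39 without whole egg rat 21. Sat1, which acetylates polyamines for export, was at -0.41 (SE 0.25) with all rats and -0.64 without the 3 libraries. Ass1, which makes argininosuccinate on the way to arginine, was at 129, 160 and 189 CPM in whole egg kidneys and at 82.5, 157 and 808 CPM in casein kidneys. The 808 CPM belonged to casein rat 23, and the log2 fold change was -0.80 (SE 0.39, edgeR adjusted p = 0.998) with that rat and -0.06 without it.

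In the oxidation of drugs and retinoids, 15 of 22 measured genes were negative, against 3787 of all 7607 genes. The median log2 fold change of the 22 was -0.13 (-0.36 to 0.0090 over the alternatives). Hsd11b1, which regenerates active glucocorticoid, was at 38.2, 107 and 127 CPM in whole egg kidneys and at 111, 166 and 253 CPM in casein kidneys, overlapping through casein rat 15, with a log2 fold change of -0.86 (SE 0.29, edgeR adjusted p = 0.998). Cyp2c11, a cytochrome P450 of male rats, was at -0.94 (SE 0.46), Cyp26b1, which degrades retinoic acid, at -1.24 (SE 0.74), and Ephx1, an epoxide hydrolase, at 0.57 (SE 0.34). Ephx1 was at 0.30 without whole egg rat 2 and 0.34 without the 3 libraries. Of 13 genes of conjugation other than with glutathione, 7 were positive with a median of 0.12 (10 with a median of 0.41 in the rats labelled Lean, 4 with a median of -0.26 in those labelled ZDF), between Ugt1a6 and Glyatl2, a glycine acyltransferase, at -0.96 (SE 0.70) with all rats and -0.58 without the 3 libraries.

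Several lists had a median below that of all genes, with 0 members past the test in edgeR. Over all 7607 genes 3787 were negative, and over the 421 with a symbol 211 were. The study lists most of the interferon-induced genes and all of the immediate early genes below as lower on whole egg in some tissue. These 2 lists are thus selected sets. Of 10 interferon-induced genes 8 were negative, with a median log2 fold change of -0.27 (-0.44 without casein rat 19), led by Irf1, a transcription factor of that response, at -1.12 (SE 0.64) with all rats, -1.86 without whole egg rat 2 and -1.88 without the 3 libraries, and Ifih1, a sensor of viral RNA, at -1.33 (SE 0.81). Of 6 genes listed for cell junctions 3 were negative, with a median of -0.33 (-0.65 to -0.21 over the alternatives). These were Cdh1, Tgm2 and Krt8, an epithelial keratin, at -0.76 (SE 0.41) with all rats and -0.31 without the 3 libraries. Tgm2 and Krt8 do not code for junction proteins, and the study selected Cdh1 and Tgm2 on these same libraries. Of the junction proteins beside Cdh1, the claudin Cldn3 was at 0.60 (SE 0.58) and the desmoplakin Dsp at 0.17 (SE 0.39). Of 5 immediate early and growth factor response genes 4 were negative with a median of -0.37 (-0.17 without the 3 libraries), Phlda1 and Ets2, a transcription factor, among them. Ets2 was at -0.37 (SE 0.30) with all rats, -0.17 without casein rat 12 and -0.17 without the 3 libraries. All 4 measured circadian clock genes were negative, with a median of -0.24 (-0.41 without casein rat 12). Of 4 genes of vitamin D and mineral handling, a list whose median of 0.09 lay above that of all genes, 2 were negative, Cyp24a1 among them, and the median ran from -0.78 to 0.71 over the alternatives.

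**Figure D4:**
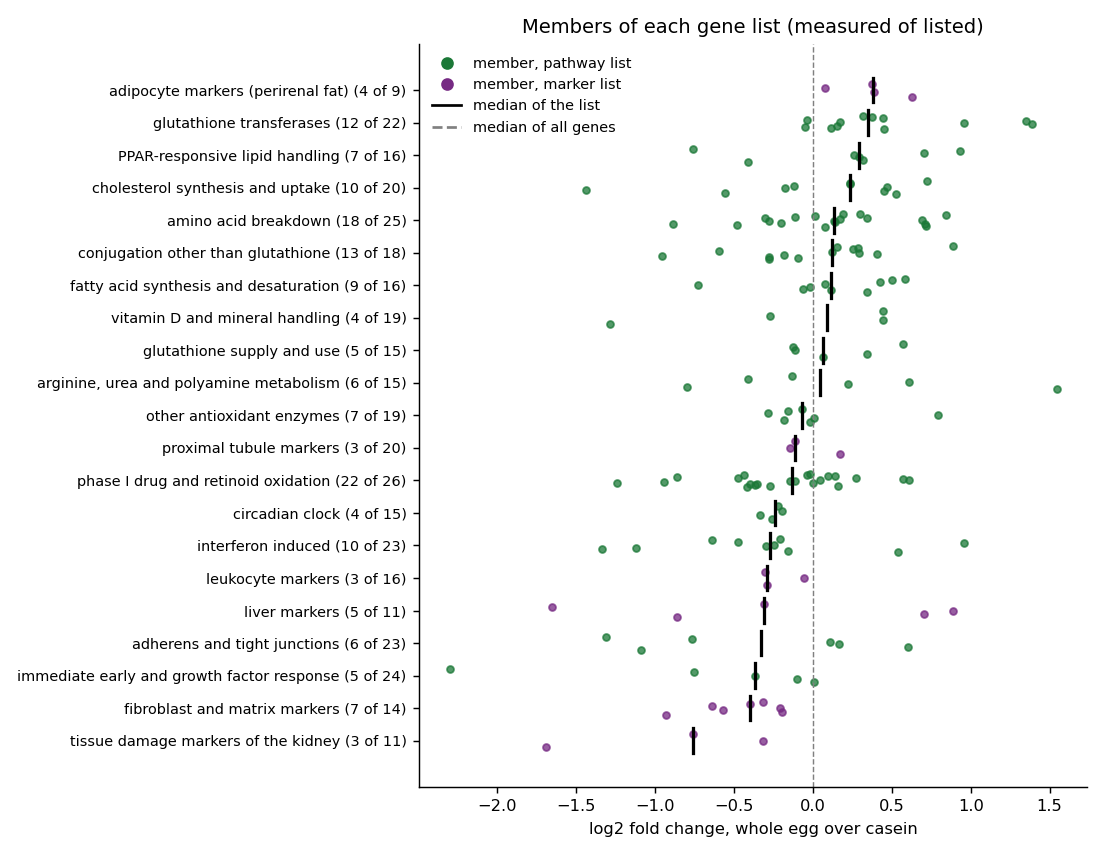
Log2 fold change, whole egg over casein, of each measured member of the gene lists with 3 or more measured members, pathway lists in green and marker lists in purple. The black bar is the median of the list and the dashed line the median of all 7607 genes at 0.0025. The transferase median is 0.35 and the matrix median -0.40. Measured members are genes that the study lists as changed by whole egg in some tissue and genotype.

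Marker genes of cell types were compared in the same way. All 7 measured fibroblast and matrix genes were negative on the log2 scale, as were 3787 of all 7607 genes. The study lists each of the 7 as lower on whole egg in ZDF kidney, liver or adipose tissue, so they are a selected set. In the rats labelled Lean 1 of the 7 was positive, and in those labelled ZDF also 1. The median of the 7 was -0.40 and ran from -0.61 to -0.28 over the alternatives. Their summed level was 126 to 287 CPM in whole egg kidneys (median 183) and 175 to 604 CPM in casein kidneys (median 286). Col3a1, a fibrillar collagen chain, was at 18.9, 54.9 and 109 CPM in whole egg kidneys and at 47.6, 79.8 and 261 CPM in casein kidneys, with a log2 fold change of -0.93 (SE 0.41, edgeR adjusted p = 0.998) and wide overlap. Mgp, an inhibitor of calcification, was at -0.64 (SE 0.34) with all rats and -1.04 without the 3 libraries. Without casein rat 8 alone Col3a1 was at -0.48 and Mgp at -0.33.

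Of the damage markers 3 were measured and all were negative, with a median of -0.76 with all rats and 0.16 in the rats labelled ZDF. The study lists these 3 as lower on whole egg in ZDF liver or adipose tissue, so they too are a selected set. Rhbg, an ammonium transporter of the collecting duct, was at 3.18, 6.59 and 9.55 CPM in whole egg kidneys and at 6.84, 15.1 and 31.4 CPM in casein kidneys, overlapping through casein rat 19. Rhbg had a log2 fold change of -1.27 (SE 0.54, edgeR adjusted p = 0.998).

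Markers of tubule segments and of other tissues varied from rat to rat. Slc12a3 was at 3.29, 132 and 267 CPM in whole egg kidneys and at 133, 237 and 317 CPM in casein kidneys, the lowest value belonging to whole egg rat 13, with a log2 fold change of -0.79 (SE 0.48, edgeR adjusted p = 0.998) with all rats, -0.53 without that rat and -1.27 without the 3 libraries. The 3 proximal tubule markers summed to 413 to 1393 CPM in whole egg kidneys and 551 to 1596 CPM in casein kidneys. The 4 adipocyte markers, with a median log2 fold change of 0.38 (-0.049 to 1.08 over the alternatives), summed to 33.8 to 342 CPM in whole egg kidneys and 38.3 to 280 CPM in casein kidneys, and Adipoq was at 6.75 CPM or more in each kidney. The 3 leukocyte markers summed to 89.0 to 163 CPM in whole egg kidneys and 105 to 190 CPM in casein kidneys. The part of these markers in the differences above was not tested.

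Some of the genes with small p have no symbol here and are known by identifier only, 2 in each direction being shown. ENSRNOG00000015113 was at 8.23, 16.8 and 35.0 CPM in whole egg kidneys and at 1.12, 2.81 and 8.39 CPM in casein kidneys (log2 fold change 2.13, SE 0.61), and ENSRNOG00000011358 at 2.47, 16.9 and 44.5 CPM in whole egg kidneys and at 2.28, 3.97 and 4.87 CPM in casein kidneys (2.17, SE 0.64, and 1.495 without the 3 libraries that stand apart). Lower on whole egg were ENSRNOG00000011815, at 32.4, 48.5 and 77.0 CPM in whole egg kidneys and 53.5, 112 and 227 CPM in casein kidneys (-1.16, SE 0.33, and -0.72 without the 3 libraries), and ENSRNOG00000054065. The edgeR adjusted p was 0.998 for all 4. The last of them had a log2 fold change of -5.23 (SE 1.63) that rests on 1 library, since casein rat 4 held 16700 CPM and the other casein rats 2.81 to 8.23 CPM. Without casein rat 4 the log2 fold change of ENSRNOG00000054065 was 3.58.

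The strain label was then set against the diet within the table. With diet as a term, the label separated no gene in edgeR (0 of 7607, 0%, smallest adjusted p = 0.240), and 591 genes (7.77%) had an unadjusted p under 0.05. Among the 6 rats labelled Lean, whole egg and casein differed in 6 genes in edgeR (0.0789%), with 549 at an unadjusted p under 0.05, and among the 6 labelled ZDF in 0 (0%), with 199 at an unadjusted p under 0.05. Of the 6, the symbols known are Gstp1, higher on whole egg, and Ddc, lower on whole egg.

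Gstp1 was at 362, 465 and 628 CPM in the whole egg rats labelled Lean and at 84.5, 88.0 and 106 CPM in the casein rats with that label. In the rats labelled ZDF it was at 137, 180 and 268 CPM on whole egg and at 46.1, 99.3 and 397 CPM on casein. Its log2 fold change was thus 2.37 (edgeR adjusted p = 0.00226) in the rats labelled Lean and 0.15 in those labelled ZDF. Ddc was at 11.1, 16.9 and 18.1 CPM in the whole egg rats labelled Lean and at 71.03, 93.0 and 122 CPM in the casein rats with that label. In the rats labelled ZDF it was at 29.3, 44.5 and 104 CPM on whole egg and at 11.2, 47.1 and 68.2 CPM on casein. For Ddc the log2 fold change was -2.61 (edgeR adjusted p = 0.00625) in the rats labelled Lean and 0.51 in those labelled ZDF.

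The difference between the labels was itself tested, a comparison added after seeing the data. It was 2.23 (SE 0.69, edgeR adjusted p = 0.538) for Gstp1 and -3.15 (SE 0.79, edgeR adjusted p = 0.298) for Ddc on the log2 scale, and no gene passed in edgeR (0 of 7607, 0%, with 440 or 5.78% at an unadjusted p under 0.05). DESeq2 called 1 gene, which has no symbol. Without the 3 libraries that stand apart 0 genes passed in edgeR and the smallest adjusted p was 0.997. On the log2 scale Ugt1a6 was at 1.40 in the rats labelled Lean and 0.36 in those labelled ZDF, and Cdo1 at 1.42 (Lean) and -0.21 (ZDF). Oat was at 1.27 (Lean) and -0.36 (ZDF), Gclm at 0.92 (Lean) and -0.56 (ZDF), and Slc12a3 at -2.24 (Lean) and 0.020 (ZDF). In other genes the fold change was farther from 0 in the rats labelled ZDF, namely Cyp2c11 at -0.17 (Lean) and -2.19 (ZDF), Hsd11b1 at -0.35 (Lean) and -1.48 (ZDF) and Ephx1 at 0.031 (Lean) and 1.29 (ZDF). These 8 differences between the labels had edgeR adjusted p-values of 0.729 to 0.862. Phlda1 was at -2.03 (Lean) and -2.70 (ZDF), and Gstm1 at 1.42 (Lean) and 1.29 (ZDF). All 3 of the libraries that stand apart carry the label ZDF. The other 3 libraries with that label do not stand apart by genes at 0 or on the components. Of these, casein rat 4 had a median correlation with the other libraries of 0.758, near the 0.740 of whole egg rat 2.

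The kidney of ZDF rats, by column name, is the nearest comparison, and its 12 rats are other animals. By strain label its whole egg rats are 4 Lean and 2 ZDF and its casein rats 2 Lean and 4 ZDF, so that diet and label are partly confounded there. In the 6797 genes of both tables the effect of whole egg did not differ past the test between lean and ZDF kidneys (0 genes, 0%, in edgeR), with 283 genes (4.16%) at an unadjusted p under 0.05 and 0 called by DESeq2. Nor did a gene pass with the genotype taken from the strain label (167 genes at an unadjusted p under 0.05) or with that label as a further term (191.0 genes). Phlda1 had a log2 fold change of -2.30 in the lean and -0.86 in the ZDF kidney, and the difference of -1.42 (SE 0.63) had an edgeR adjusted p of 0.999. Anapc16 was at 2.14 in the lean and -0.09 in the ZDF kidney (difference 2.23, SE 0.81), and Cdh1 at -1.09 in the lean and 0.18 in the ZDF kidney (difference -1.26, SE 0.48). Gstm1 was positive in both, at 1.39 in the lean and 1.03 in the ZDF kidney.

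Of the 6 genes the study lists for the ZDF kidney, Gstp1 was at 1.35 in the lean and 2.10 in the ZDF kidney, where its edgeR adjusted p was 0.0839. Col3a1 was negative in both, at -0.93 in the lean and -1.41 in the ZDF kidney. Rtn1, an endoplasmic reticulum protein, was at 0.43 in the lean and -1.87 in the ZDF kidney (difference 2.30, SE 0.81), with lean values of 11.5 to 158 CPM on whole egg and 8.28 to 166 CPM on casein. Ywhah, a 14-3-3 adaptor protein, was at 0.49 in the lean and -1.26 in the ZDF kidney (difference 1.74, SE 0.56), and Srp19, a protein of the signal recognition particle, at 0.03 in the lean and -1.68 in the ZDF kidney (difference 1.70, SE 0.62). CNT1, a concentrative nucleoside transporter of the proximal tubule, was at 0.17 in the lean and 1.68 in the ZDF kidney (difference -1.53, SE 0.77). Without the 3 libraries that stand apart the lean value was 0.12 for Rtn1 and 0.15 for Ywhah, and without whole egg rat 2 alone it was 0.025 for Rtn1 and -0.068 for Ywhah. Without casein rat 4 alone it was 1.16 for Rtn1 and 0.76 for Ywhah. The edgeR adjusted p of each of the differences between the kidneys was 0.999.

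**Figure D5:**
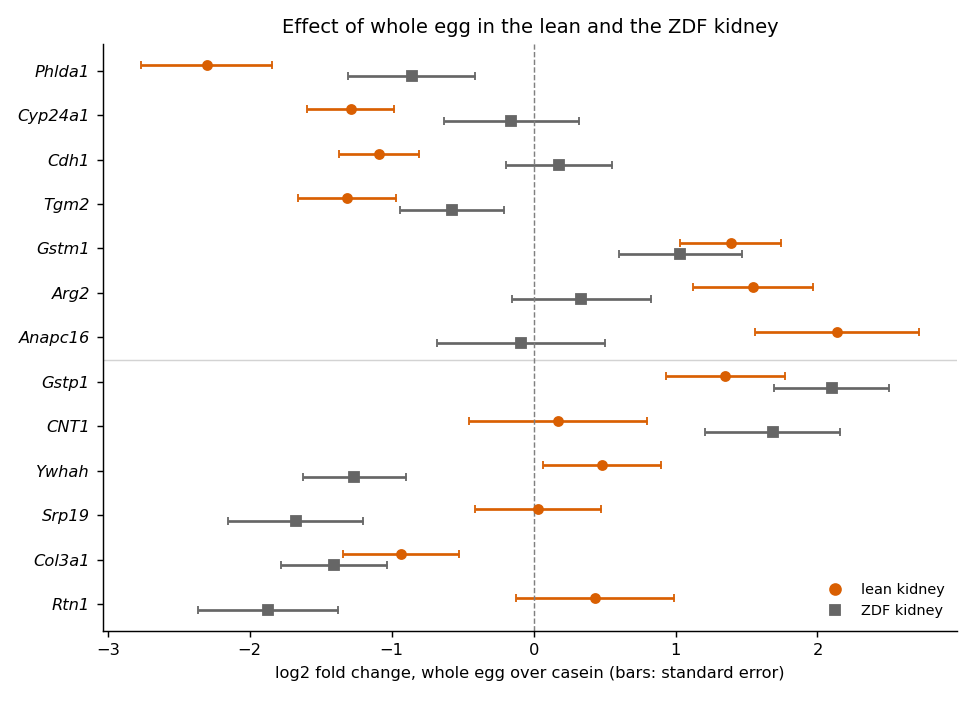
Log2 fold change, whole egg over casein, with its standard error, in the lean kidney (orange circles) and the ZDF kidney (grey squares) for the 7 genes listed for the lean kidney (above the line) and the 6 listed for the ZDF kidney (below it), n = 6 rats per diet in each. Gstm1 and Gstp1 lie right of 0 and Phlda1, Tgm2 and Col3a1 left of 0 by more than a standard error in both kidneys. Anapc16 is at 2.14 in the lean and -0.09 in the ZDF kidney.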

How the data were processed

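Kidney RNA of 6 whole egg and 6 casein rats was sequenced with a QuantSeq kit, in which reads start near the poly(A) tail, so that a count does not scale with transcript length. The authors trimmed the reads, mapped them with STAR to RNO_6.0 (Ensembl release 94), counted them and dropped genes seen in too few libraries. The deposited table holds those raw counts. For FastQC, STAR and DESeq no version is given in the sources used here. The deposited table holds 7607 genes, of which 5801 had no library at 0 and 1806 had 1. The authors' comparison tables hold fold changes and p-values, which were not used, and 0 columns were left unmapped. Symbols, from the study's table of differentially expressed genes, cover 421 of the 7607 identifiers. A list member could thus be measured only if the study called it in some tissue and genotype.

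TMM factors (0.617 to 1.35), dispersions and two-sided quasi-likelihood tests came from edgeR 4.0.16 in R 4.3.3, with no further filter and Benjamini-Hochberg adjustment over all genes (FDR 5%). Log2 CPM used a prior count of 2. The alternatives were DESeq2 1.42.0 (own or TMM factors), RLE and upper quartile factors, a filter at a minimum count of 10 (6266 genes), limma-voom (limma 3.58.1) with quality weights, robust dispersions, the strain label as a term, 1 surrogate variable (sva 3.50.0), an FDR of 10%, each rat left out, the rats of either strain label alone and, chosen after seeing the data, leaving out whole egg rats 2 and 10 and casein rat 12. A diet by genotype term was tested over the 24 lean and ZDF kidney libraries (also with the strain label as a further term, chosen after seeing the data), and diet by strain label within the 12. Scripts were tested on simulated counts with 200 changed genes. Figures were drawn with matplotlib 3.10.9.

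The text names the 7 genes the study lists for the lean kidney, the 6 it lists for the ZDF kidney, the 10 genes of smallest p either way (at most 2 without a symbol each way) and up to 4 members of each of 28 lists (15 pathway, 13 marker), those with the smallest p. The members, lists and tests were chosen with earlier results of these data known. Lists are described by counts and medians beside those of all genes. Results for 2 list members that this rule selects are not reported here.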

Additional observations from a re-analysis of the deposited data

Results flagged for a closer look

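In groups of 6 rats, a value was marked where its gap to the nearest other rat exceeded 0.625 of the range of its group. For independent, normally distributed values chance marks about 1 in 20 groups. Here 13 of 64 groups were marked, 7 of 50 on gene values. CPM values need not be normal and the groups share the same rats, so these counts cannot be judged against that rate. Casein rat 12 was far above the other casein rats for Gstm1 (58.5 CPM, others 16.3 to 28.4), Gstp1 (397 CPM, others 46.1 to 106), Ugt1a6 (382 CPM, others 145 to 212) and Ivd (312 CPM, others 117 to 161). Casein rat 4 was far above them for Rtn1 (166 CPM, others 8.28 to 65.8) and ENSRNOG00000054065 (16700 CPM, others 2.81 to 8.23), and casein rat 23 for Ass1 (808 CPM, others 82.5 to 292).

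Among the library values, casein rat 23 had a total of 5356262 counts, where the other casein rats had 665699 to 1695867. Whole egg rat 10 had 891 genes at 0 (other whole egg rats 12 to 165) and a score of 132 on component 1. Casein rat 12 had 426 genes at 0 (other casein rats 3 to 49) and a score of -108.1 on component 2. Whole egg rat 2 had a score of 77.9 on component 3.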

How the results depend on the processing

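The count of genes called in edgeR, 0 with all rats, was 1 with DESeq2 and its own size factors, 1 with DESeq2 and TMM factors, 4 with limma-voom, 6 in the rats labelled Lean alone and 1 without the 3 libraries that stand apart. It was 0 under each of the other alternatives run, an FDR of 10% and every rat left out included. The effect of diet by strain label had 1 called gene in DESeq2, where edgeR had 0. Of 47 genes with fold changes in the text, 37 kept their sign in every alternative. With only the rats labelled ZDF, the log2 fold change was -0.56 for Gclm, 0.0046 for Ass1, -0.36 for Oat, -0.21 for Cdo1, 0.51 for Ddc and 0.020 for Slc12a3. Srp19 was at -0.13 with limma-voom, -0.11 with 1 surrogate variable, -0.33 in the rats labelled Lean and -0.22 without the 3 libraries. CNT1 was at -0.0459 with the surrogate variable, -0.26 in the rats labelled Lean and -0.014 without the 3 libraries. ENSRNOG00000054065 was at 0.46 with limma-voom and 3.97 in the rats labelled Lean. Leaving out each rat in turn, log2 fold changes ran from -0.12 to 0.22 for Srp19, -0.068 to 0.76 for Ywhah, -0.073 to 0.70 for CNT1 and -6.27 to 3.58 for ENSRNOG00000054065. The causes of these shifts were not tested.

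No paired analysis was possible because the whole egg and casein groups share no rat number. Depth limits the low genes, since 1 count in the shallowest library of 418760 counts is a large share of a value such as that of Phlda1. With a common biological coefficient of variation of 0.526 and 6 rats per group, a p that misses the threshold does not show that levels were alike. Intervals and limits set by a count of 0 cover counting error only.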
